A study of Mus musculus with 4 samples.

Results

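The mitochondrial genome encodes a small set of mRNAs for core subunits of the respiratory chain, and 10 of them were followed here: mt-Nd1, mt-Nd2, mt-Nd4, mt-Nd5 and mt-Nd6 of complex I, mt-Cytb of complex III, mt-Co1, mt-Co2 and mt-Co3 of complex IV, and mt-Atp6 of complex V. They were picked out by their gene symbols, with earlier results of these data known, and all 10 were found among the 16442 genes of the deposited table. Ribosome footprints and input RNA were measured in leukaemia stem cells, the cells that propagate a leukaemia, taken from the bone marrow of leukaemic C57BL/6 mice. There were 2 libraries labelled KO, for a knockout of the transcription factor gene Rreb1, and 2 libraries labelled WT. For KO replicate 2 the genotype label is Rreb2-KO, and its title placed it with KO. The sources used here do not give the knockout allele or any Cre driver, how the leukaemia was induced, the age of the mice, or whether animals were pooled. The series calls the replicates biological without tying them to animals, so the p-values below reflect the spread among these libraries.

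Mitochondrial DNA is transcribed into long precursors that are cut at the transfer RNAs between the genes. The mature mRNAs are translated inside the organelle by mitochondrial ribosomes, and the products are built into the inner membrane together with subunits that are encoded in the nucleus and made in the cytosol. Each respiratory complex named above therefore needs output from both genomes. Leukaemia stem cells of the acute myeloid type are known for relying on oxidative phosphorylation, and drugs that block mitochondrial translation have been studied against them.

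The 4 libraries differed in depth for footprints and hardly for input RNA. Footprint reads assigned to genes numbered 364087 and 274183 in KO replicates 1 and 2, against 878068 and 656249 in WT replicates 1 and 2, a 3.2-fold range. Input reads implied by the table spanned a 1.12-fold range, with 17037499 in the shallowest library. Across 6389 tested genes, replicate libraries correlated with r = 0.782 in KO and 0.94 in WT for footprints, and with r = 0.996 in KO and 0.997 in WT for RNA. These are correlations across genes, which are not independent replicates. Rreb1 did not read as lost in values over the whole gene, which cannot show whether a part of it is missing. Its footprints were at 12.9 and 8.19 RPKM (reads per kilobase of gene, scaled to the assigned reads of the library) in the KO-labelled libraries and at 14.1 and 12.8 RPKM in the WT libraries (limma adjusted p = 0.672). Its RNA was at 6.10 and 6.93 RPKM in the KO-labelled libraries and at 3.33 and 3.25 RPKM in the WT libraries (limma adjusted p = 0.000283, higher in KO). The footprint value over the RNA value was 1.95 and 1.16 in the KO-labelled libraries and 3.48 and 3.25 in the WT libraries (limma adjusted p = 0.343). Every direction below is therefore one between libraries labelled KO and libraries labelled WT.

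The 10 mRNAs fell into 2 classes that followed their place on the mitochondrial genome. Going along the genome, the 13 coding genes run mt-Nd1, mt-Nd2, mt-Co1, mt-Co2, mt-Atp8, mt-Atp6, mt-Co3, mt-Nd3, mt-Nd4l, mt-Nd4, mt-Nd5, mt-Nd6 and mt-Cytb. The 6 neighbours from mt-Co2 to mt-Nd4l held 6 footprint reads in the 4 libraries together, all of them on mt-Nd3 in WT replicate 2. The other 7 genes held 13333 footprint reads, with 545 on the gene with the fewest and 6079 on the gene with the most. RNA showed the same division, with 0.371 to 18.3 RPKM over the 6 neighbours and 124 to 6367 RPKM over the other 7. Both classes were seen in all 4 libraries.

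mt-Co2 and mt-Co3, which with mt-Co1 form the catalytic core of cytochrome c oxidase, and mt-Atp6, part of the proton channel of ATP synthase, thus had 0 footprint reads in every library. A count of 0 allows up to 3 reads, which over these 3 genes corresponds to at most 10.5 to 12.2 RPKM in KO replicate 1 and 14.0 to 16.1 RPKM in KO replicate 2. The matching limits were 4.36 to 5.04 RPKM in WT replicate 1 and 5.83 to 6.74 RPKM in WT replicate 2. These limits cover counting error only. mt-Nd3 and mt-Nd4l (complex I) and mt-Atp8 (complex V) lie in the same run and outside the 10 mRNAs followed here.

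Read assignment in this run of 6 neighbours is uncertain. Mouse chromosome 1 carries a nuclear copy of part of the mitochondrial genome, and RefSeq lists there the pseudogene Gm10925, which has mt-Atp6 as a synonym and the same length of 681 nucleotides. Gm10925 had 0 footprint RPKM in all 4 libraries. Its RNA was at 7.61 and 144 RPKM in KO replicates 1 and 2, against 7.48 and 6.17 RPKM in WT replicates 1 and 2. The sources used here do not say how reads matching both copies were counted, and the part of such reads in the low values was not tested.

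**Figure D1:**
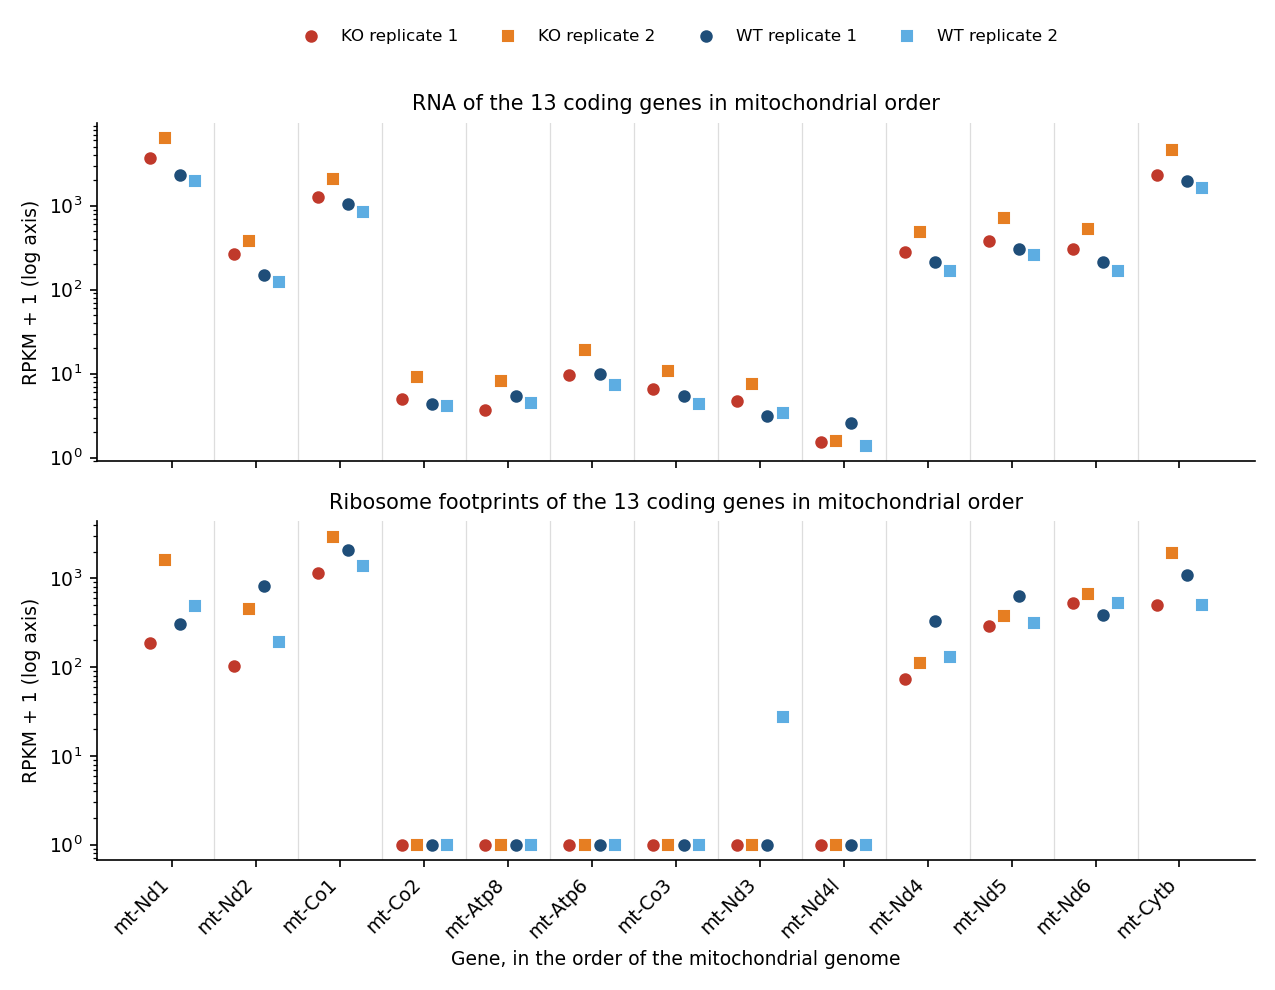
RNA (upper panel) and ribosome footprints (lower panel) of the 13 coding genes, left to right in their order on the mitochondrial genome, as RPKM + 1 on log axes. Each point is 1 library, with the 2 KO-labelled libraries left of the 2 WT libraries at every gene. The 6 genes from mt-Co2 to mt-Nd4l sit at the bottom of both panels in every library, and the 7 genes beside them are at 124 RPKM or more in RNA.

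RNA of all 7 tested mRNAs was higher in the KO-labelled libraries, by 0.80 to 1.20 on the log2 scale. The mRNAs called higher were mt-Nd1, mt-Nd2, mt-Nd4, mt-Nd5, mt-Nd6, mt-Cytb and mt-Co1. They passed limma's test with Benjamini-Hochberg adjustment over the 6389 genes that had at least 20 CPM (footprint reads scaled to a common library total) in at least 2 libraries. The same test called 33.1% of all tested genes higher. The median log2 difference was 0.95 over the 7 mRNAs and 0.04 over all tested genes. Neither KO-labelled library overlapped a WT library for any of the 7, where 44.4% of all tested genes had both KO-labelled libraries above both WT libraries. The called number fell when a WT library was left out, a fit in which the spread within groups came from the KO-labelled pair alone. The log2 differences of the 7 were then 0.63 to 1.07 without WT replicate 2 and 0.97 to 1.34 without WT replicate 1.

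Complex I takes electrons from NADH, and its mitochondrially encoded subunits form the membrane arm that pumps protons. mt-Nd1 RNA, for the subunit at the junction with the peripheral arm, was at 3736 and 6367 RPKM in KO replicates 1 and 2, against 2319 and 1994 RPKM in WT replicates 1 and 2. This is a log2 difference of 1.18 ± 0.23 (SE, 2 libraries per group, limma adjusted p = 0.00371). Both KO-labelled libraries lay above both WT libraries, and KO replicate 2 was the highest. mt-Nd2, one of the proton-pumping subunits, had 262 and 378 RPKM of RNA in KO and 150 and 124 RPKM in WT. It gave the largest RNA difference of the 7, at 1.20 ± 0.17 (limma adjusted p = 0.00079).

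mt-Nd4 and mt-Nd5 are the other antiporter-like pump subunits. mt-Nd4 RNA was at 279 and 485 RPKM in KO and at 215 and 167 RPKM in WT, a log2 difference of 0.95 ± 0.24 (limma adjusted p = 0.011). For mt-Nd5 the RNA was at 384 and 715 RPKM in KO and at 302 and 260 RPKM in WT, with 0.90 ± 0.25 (limma adjusted p = 0.0176). KO replicate 1 stood only a little above WT replicate 1 for these genes, and KO replicate 2 well above it. mt-Nd6 is the one coding gene on the other strand, within the reach of transcripts that cover mt-Nd5 and mt-Cytb. Its RNA was at 306 and 524 RPKM in KO and at 211 and 167 RPKM in WT, a log2 difference of 1.09 ± 0.23 (limma adjusted p = 0.00536). The sources used here do not say whether counting used the strand, so reads of mt-Nd6 and of its antisense transcripts cannot be told apart.

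Outside complex I the same order of libraries held. mt-Cytb, the catalytic cytochrome of complex III, had 2292 and 4579 RPKM of RNA in KO and 1968 and 1621 RPKM in WT. The log2 difference of 0.86 ± 0.29 was the one closest to the threshold (limma adjusted p = 0.0347). mt-Co1, the subunit of complex IV where oxygen is reduced, had 1270 and 2085 RPKM of RNA in KO and 1052 and 830 RPKM in WT, with 0.80 ± 0.22 (limma adjusted p = 0.0174). For both genes KO replicate 1 exceeded WT replicate 1 by far less than KO replicate 2 did.

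The 3 mRNAs without footprints could be tested only when no filter was set. mt-Co2 RNA was at 3.97 and 8.24 RPKM in KO and at 3.36 and 3.06 RPKM in WT (limma adjusted p = 0.137). mt-Co3 RNA was at 5.47 and 9.66 RPKM in KO and at 4.40 and 3.37 RPKM in WT (limma adjusted p = 0.0753). mt-Atp6 RNA was at 8.69 and 18.3 RPKM in KO and at 8.91 and 6.39 RPKM in WT (limma adjusted p = 0.194). mt-Co2 and mt-Co3 had no overlap between the groups, with both KO-labelled libraries higher, as for 44.8% of all genes in this fit, whereas mt-Atp6 in KO replicate 1 lay just below WT replicate 1. In that fit of 16250 genes, 3 of the 10 mRNAs were called higher (mt-Nd1, mt-Nd2 and mt-Nd6), against 25.4% of all genes. Of the neighbours outside the 10, mt-Nd3 was called higher in it at 0.89 (limma adjusted p = 0.0397), while mt-Nd4l at -0.26 and mt-Atp8 at 0.16 were not called.

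The 2 KO-labelled libraries did not carry the RNA difference equally. KO replicate 2 exceeded KO replicate 1 by 1.44 times or more for each of the 7 mRNAs, with a median of 1.71 times, where WT replicate 1 exceeded WT replicate 2 by 1.16 to 1.29 times. Relative to the WT mean, the median log2 RNA of the 7 was 0.56 in KO replicate 1 and 1.36 in KO replicate 2. With KO replicate 1 left out the median difference was thus 1.36, and with KO replicate 2 left out it was 0.56. In each of these fits the spread within groups came from the WT pair alone, which varied less in RNA than the KO-labelled pair. Their p-values hold no spread among KO-labelled libraries and are not used here.

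Markers of other cell types also differed between the groups in RNA. Among 8 markers of blood cells and progenitors the summed RNA was 459 to 475 RPKM in KO and 434 to 447 RPKM in WT, with 4 above WT and 3 below. Within that list the stem cell marker Cd34 stood at 50.5 and 49.8 RPKM in KO and at 4.41 and 4.71 RPKM in WT, and the pan-leukocyte gene Ptprc at 28.5 to 30.8 RPKM in KO and 31.0 to 31.2 RPKM in WT. The lists for other lineages moved in both directions. Neutrophil markers summed to 2680 to 3276 RPKM in KO and 7502 to 8145 RPKM in WT, with 4 of 6 below WT and 1 above. Macrophage and dendritic cell markers summed to 57.5 to 58.2 RPKM in KO and 134 to 139 RPKM in WT, with 3 of 6 below WT and 3 above. B cell markers summed to 26.4 to 28.3 RPKM in KO and 40.5 to 43.0 RPKM in WT, with 1 of 2 on each side. The lists in the next sentences were higher in KO.

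Mast cell, basophil and eosinophil markers summed to 437 to 457 RPKM in KO and 15.5 to 18.1 RPKM in WT, with 4 of 5 above WT. T and NK cell markers summed to 363 to 433 RPKM in KO and 17.2 to 17.6 RPKM in WT, with 5 of 7 above WT. Most of that sum was Nkg7, at 426 and 356 RPKM in KO and 15.0 and 14.6 RPKM in WT. The CD3 chain gene Cd3e was also higher in KO but low, at 0.293 and 0.302 RPKM in KO and 0.0513 and 0.162 RPKM in WT. Erythroid markers summed to 232 to 289 RPKM in KO and 43.4 to 49.8 RPKM in WT, with 3 of 6 above WT and 1 below. Megakaryocyte markers summed to 20.8 to 22.2 RPKM in KO and 1.15 to 1.64 RPKM in WT, with 2 of 4 above. Nearly all of the KO sum was Itga2b, at 19.7 and 19.6 RPKM in KO and 0.153 and 0.162 RPKM in WT, while Pf4 and Gp9 overlapped between the groups. Stroma and endothelium markers summed to 23.5 to 26.6 RPKM in KO and 1.19 to 1.36 RPKM in WT, with both above. No listed marker was at 0 in all 4 libraries. The part of cell composition in the mitochondrial RNA levels was not tested, and in bulk samples fewer cells of a type and less RNA per cell cannot be told apart.

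**Figure D2:**
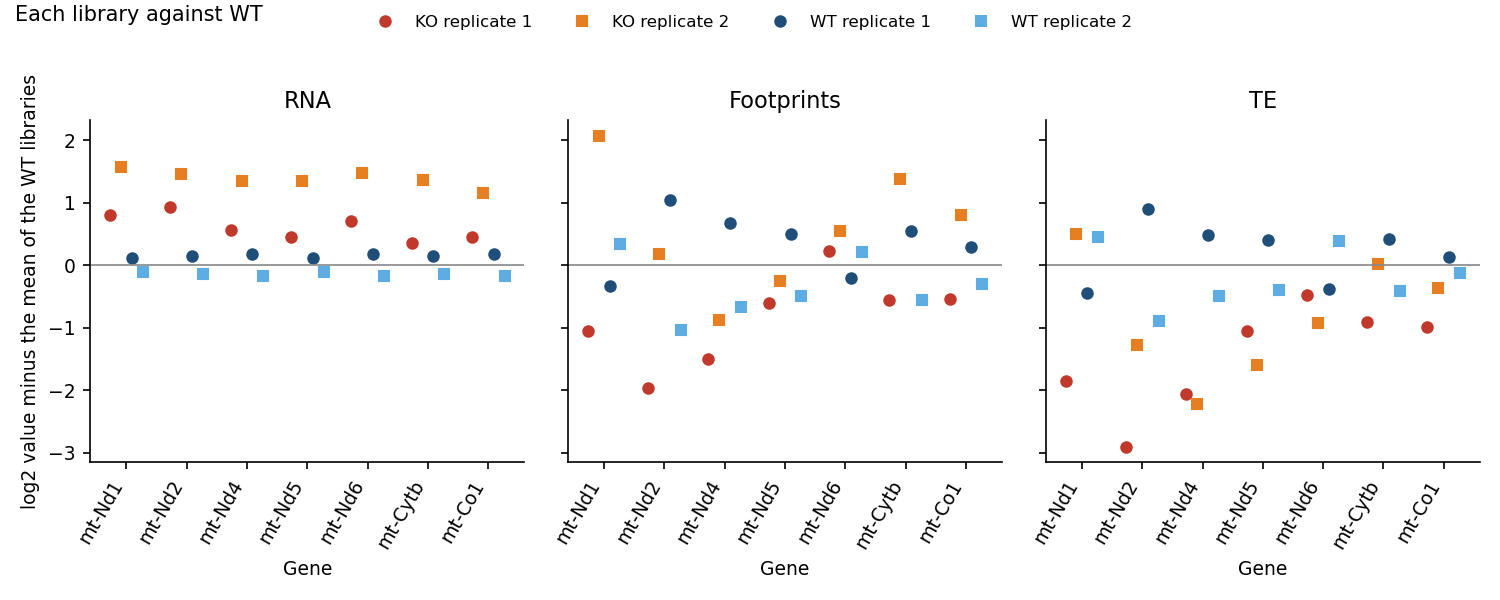
Log2 RNA, footprints and translational efficiency (TE) of the 7 tested mRNAs in each library, minus the mean of the 2 WT libraries (vertical axes, log2 units of RPKM + 1 or of their ratio). Each point is 1 library, KO-labelled libraries left of WT. In RNA all KO-labelled points lie above all WT points, whereas in footprints the groups overlap for 5 of the 7.

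Footprints of the mitochondrial mRNAs showed no such shared direction. None of the 7 passed limma's test with adjustment over all tested genes, which called 1.06% of them, and 0 of the 7 had an unadjusted p under 0.05, against 18.2% of all tested genes. The limma-voom test on recovered whole reads called 0 of the 7 as well. Estimates were positive for 4 mRNAs and negative for 3, with a median log2 difference of 0.12, against -0.13 over all tested genes. Both KO-labelled libraries lay above both WT libraries for mt-Nd6 alone (20.5% of all tested genes) and below them for mt-Nd4 alone (32.1% of all tested genes).

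mt-Nd1 footprints were at 184 (64 reads) and 1606 RPKM (420 reads) in KO replicates 1 and 2, against 302 and 486 RPKM in WT replicates 1 and 2, from 253 and 304 reads. The KO-labelled libraries were the lowest and the highest of the 4. Between the groups this gave 0.51 ± 1.07 on the log2 scale (SE, 2 libraries per group, limma adjusted p = 0.828). mt-Nd2 footprints were at 101 and 451 RPKM in KO, from 38 and 128 reads, and at 820 and 193 RPKM in WT, from 745 and 131 reads. Here the spread was wide in both groups, and the difference was -0.89 ± 1.00 (limma adjusted p = 0.681).

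mt-Nd4 footprints were at 71.8 and 111 RPKM in KO, from 36 and 42 reads, and at 326 and 128 RPKM in WT, from 395 and 116 reads. KO replicate 2 and WT replicate 2 were close to each other, and the difference of -1.19 ± 0.54 did not pass (limma adjusted p = 0.344). For mt-Nd5 the footprints were at 291 and 373 RPKM in KO, from 193 and 186 reads, and at 627 and 312 RPKM in WT, from 1003 and 373 reads. Only WT replicate 1 stood apart, and the difference was -0.43 ± 0.42 (limma adjusted p = 0.635). mt-Nd6 had 527 and 657 RPKM in KO, from 99 and 93 reads, and 388 and 523 RPKM in WT, from 176 and 177 reads. KO replicate 1 and WT replicate 2 differed by little for this gene, with 0.38 ± 0.30 between the groups (limma adjusted p = 0.545).

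mt-Cytb footprints were at 502 and 1929 RPKM in KO, from 209 and 605 reads, and at 1085 and 503 RPKM in WT, from 1090 and 378 reads. The lower libraries of both groups were alike, and the difference was 0.41 ± 0.77 (limma adjusted p = 0.805). mt-Co1 footprints were at 1152 and 2928 RPKM in KO, from 647 and 1238 reads, and at 2071 and 1374 RPKM in WT, from 2804 and 1390 reads. Both WT libraries fell between the KO-labelled ones, and the difference was 0.12 ± 0.54 (limma adjusted p = 0.914).

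The spread between replicates exceeded counting error for most of the 7 mRNAs. For mt-Nd1 the ratio of KO replicate 2 to KO replicate 1 was 8.71 (exact 95% interval 6.69 to 11.5), and the ratio of WT replicate 1 to WT replicate 2 was 0.622 (0.524 to 0.737). For mt-Nd2 these ratios were 4.47 (3.09 to 6.61) in KO and 4.25 (3.53 to 5.16) in WT. The interval included 1 only for mt-Nd4 and mt-Nd6, and only in KO, with ratios of 1.55 (0.969 to 2.49) and 1.25 (0.930 to 1.67). The ratio differed from gene to gene within each pair of libraries, at 1.25 to 8.71 in KO and 0.622 to 4.25 in WT, so these replicates did not differ by a common factor.

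TE, the footprint value over the RNA value of the same library, had negative estimates for all 7 mRNAs, and none was called. limma called 0 of the 7 and 0 of 6389 genes (0%), with 2 of the 7 (mt-Nd4 and mt-Nd5) and 13% of all tested genes at an unadjusted p under 0.05. The median log2 difference was -0.71 over the 7 and -0.15 over all tested genes. For 5 of the 7 both KO-labelled libraries lay below both WT libraries, which held for 32.3% of all tested genes. TE has RNA in its denominator, so it is not independent of the RNA difference above.

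mt-Nd4 TE was 0.260 and 0.231 in KO replicates 1 and 2, against 1.52 and 0.770 in WT replicates 1 and 2. Both KO-labelled values were far below both WT values, and the log2 difference was -2.14 ± 0.50 (limma adjusted p = 0.292). mt-Nd2 TE was 0.388 and 1.19 in KO and 5.42 and 1.55 in WT, with -2.09 ± 0.83 (limma adjusted p = 0.389). WT replicate 1 stood far above the other 3 libraries for mt-Nd2. mt-Nd5 TE was 0.759 and 0.521 in KO and 2.07 and 1.20 in WT, with -1.32 ± 0.45 (limma adjusted p = 0.349). mt-Nd6 TE was 1.72 and 1.25 in KO and 1.84 and 3.13 in WT, with -0.71 ± 0.42 (limma adjusted p = 0.509). KO replicate 1 and WT replicate 1 nearly met for mt-Nd6.

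mt-Co1 TE was 0.908 and 1.40 in KO and 1.97 and 1.65 in WT, with a log2 difference of -0.68 ± 0.38 (limma adjusted p = 0.497). Its KO replicate 2 came close to WT replicate 2. The groups overlapped for the other two. mt-Nd1 TE was 0.0496 and 0.252 in KO and 0.131 and 0.244 in WT, with -0.67 ± 0.99 (limma adjusted p = 0.788). mt-Cytb TE was 0.219 and 0.421 in KO and 0.552 and 0.311 in WT, with -0.45 ± 0.59 (limma adjusted p = 0.763). The authors' deposited table gives p-values for TE, headed as adjusted and with no method in the sources used here, of 0.069 to 0.392 for these 7 mRNAs. The TE of mt-Co2, mt-Co3 and mt-Atp6 has the floor of 1 as its numerator, so it follows their RNA alone and is not given.

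**Figure D3:**
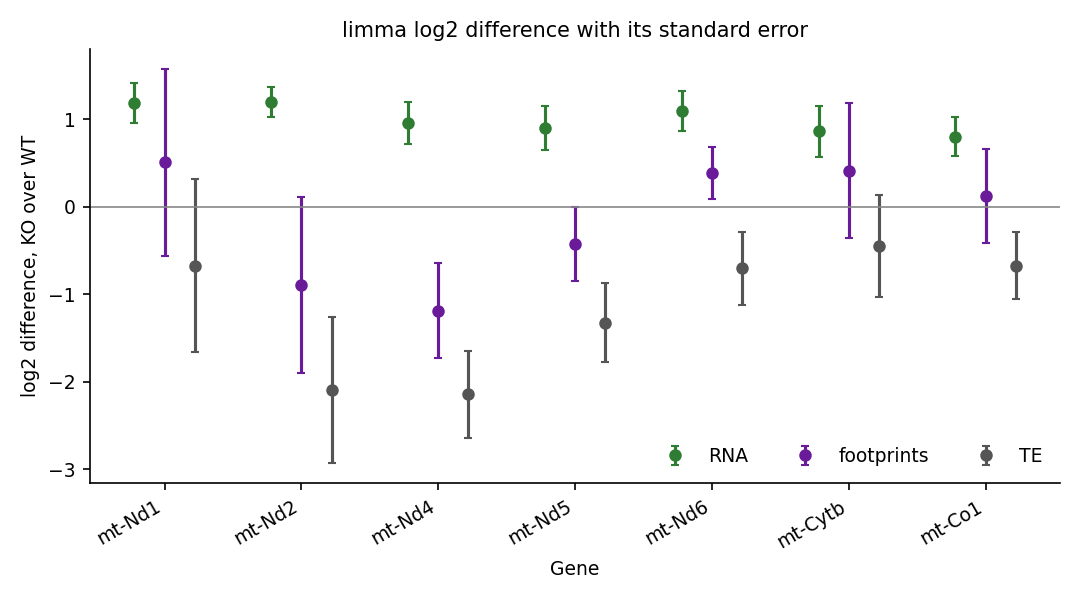
Log2 difference of KO-labelled over WT libraries for the 7 tested mRNAs (points) with limma's standard error (bars, n = 2 per group), in RNA, footprints and TE. The RNA estimates lie between 0.80 and 1.20 with short bars, the footprint estimates lie on both sides of 0, and the TE estimates lie below 0 with bars that differ widely in length.

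Among the 7 mRNAs the order of RNA levels was far more stable than that of footprint levels. In RNA per length, mt-Nd1 was the highest in all 4 libraries, followed by mt-Cytb, mt-Co1 and mt-Nd5, and mt-Nd2 was the lowest. mt-Nd4 and mt-Nd6 were the only neighbours that changed places, and in each library they lay close together. mt-Nd1 made up 43.8% and 42.1% of the summed RNA RPKM of the 7 in KO and 37.3% and 38.6% in WT. It ranked among the 13 highest RNAs of the whole table in every library, at rank 3 and 2 in KO and 10 and 13 in WT.

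In footprints per length, mt-Co1 was the highest of the 7 in all 4 libraries, with 40.7% and 36.4% of their summed footprint RPKM in KO and 36.8% and 39.0% in WT. Its rank among all genes was 75 and 19 in KO and 39 and 79 in WT. The places below it were not stable. mt-Nd1 was the fifth and the third of the 7 in KO and the seventh and the fourth in WT. mt-Nd4 was the lowest in both KO-labelled libraries and in WT replicate 2. mt-Nd1 had the lowest TE of the 7 in KO replicate 1 and both WT libraries. The highest TE exceeded the lowest by 34.7 and 6.08 times in KO and by 41.5 and 12.8 times in WT.

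Together the 10 mRNAs took a small part of each footprint library. Their share was 0.353% (exact Clopper-Pearson 95% interval 0.334% to 0.373%) and 0.989% (0.952% to 1.03%) of assigned footprint reads in KO replicates 1 and 2. In WT replicates 1 and 2 it was 0.736% (0.719% to 0.754%) and 0.437% (0.421% to 0.453%). Both WT values fell between the KO-labelled ones, and a two-sided exact permutation test over the libraries gave p = 1. Their share of input reads was 0.969% (0.964% to 0.973%) and 1.72% (1.72% to 1.73%) in KO, and 0.722% (0.718% to 0.726%) and 0.597% (0.594% to 0.601%) in WT. The input shares of KO lay above those of WT, with p = 0.333 in the exact permutation test, the smallest p that 2 against 2 libraries allow.

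Most tested nuclear-encoded partners in complexes I, IV and V, and fewer in complex III, were also called higher in RNA, beside the 33.1% of all tested genes called higher and 27.7% called lower. Complex I had 24 of 31 tested nuclear genes called higher, led by the accessory subunits Ndufa3 (log2 difference 1.03, limma adjusted p = 3.55e-05), Ndufa8 (1.01) and Ndufb7 (1.00). In complex III, 4 of 9 were called higher, among them Uqcrq (0.84), Uqcr10 (0.80) and Uqcr11 (0.80), and the core protein gene Uqcrc1 was called lower (-0.31, limma adjusted p = 0.0186). Complex IV had 7 of 8 called higher and 0 called lower, with Cox6a1 at 0.80, Ndufa4 at 0.69 and Cox8a at 0.57. Complex V had 10 of 13 called higher, led by the ATPase inhibitor Atpif1 (1.09), Atp5h (1.02) and Atp5k (0.91), and the catalytic subunit gene Atp5b was called lower (-0.23, limma adjusted p = 0.023). In footprints and in TE, limma called 0 genes of each of these 4 lists, where it called 1.06% and 0% of all tested genes. An unadjusted p under 0.05 was reached in footprints by 9, 1, 4 and 1 genes of complexes I, III, IV and V, all lower, against 12.4% of all tested genes. In TE it was reached by 13, 4, 5 and 4 genes of these complexes that were lower, and by 1 gene of complex V that was higher. Over all tested genes, 13% reached it in TE in either direction.

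The replicates of the nuclear subunits were closer to each other in RNA than those of the mitochondrial ones. Over the 61 tested nuclear genes of complexes I, III, IV and V, the median log2 RNA relative to the WT mean was 0.49 in KO replicate 1 and 0.51 in KO replicate 2. The 7 mitochondrial mRNAs had 0.56 and 1.36. In footprints the nuclear median was -0.80 and -0.31 in KO replicates 1 and 2, and the mitochondrial median -0.60 and 0.54. In TE the nuclear median was -1.30 and -0.85, and the mitochondrial median -1.05 and -0.93. The difference between the mitochondrial and the nuclear median in RNA was 0.07 and 0.85 in KO and 0.12 and -0.12 in WT. Each gene was centred on the mean of its WT libraries, so the 2 WT values mirror each other around 0. An exact permutation test over the 4 libraries is therefore not valid for this difference, and no p-value is given. Whether the sets differed was not settled.

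**Figure D4:**
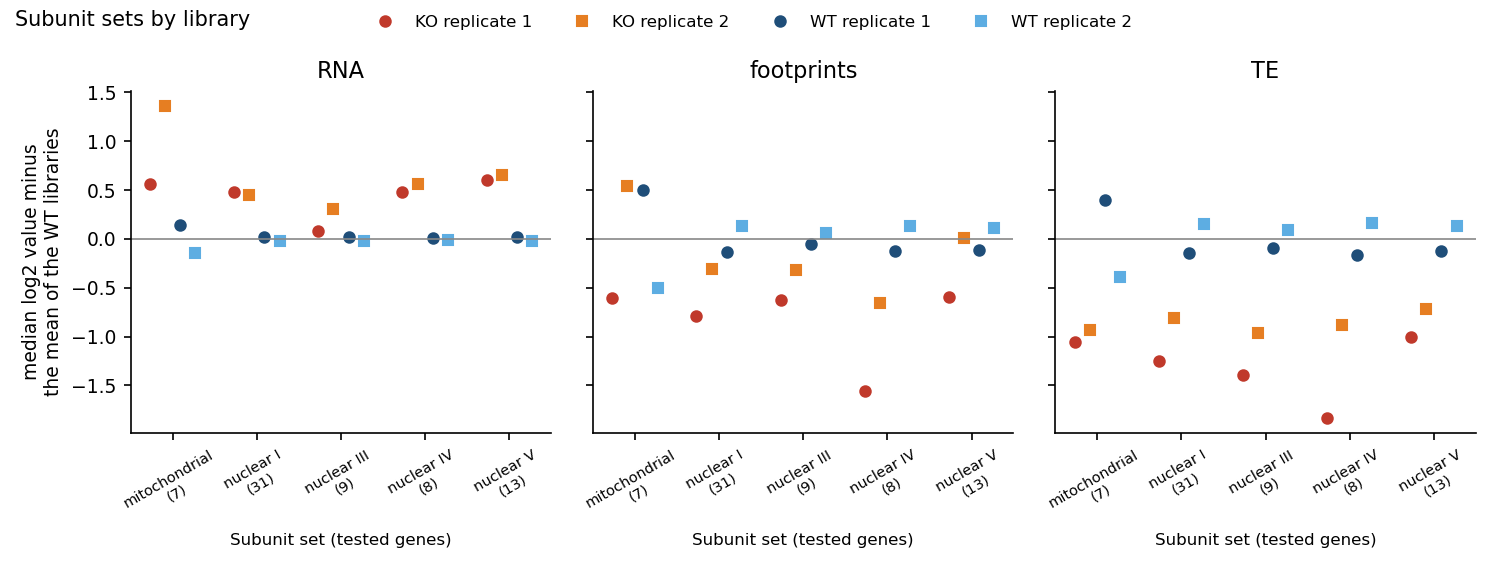
Median log2 value of each subunit set minus the mean of the 2 WT libraries (vertical axes, log2 units), for the 7 mitochondrial mRNAs and for the nuclear subunits of complexes I, III, IV and V, with the number of tested genes in brackets. Each point is 1 library, KO-labelled libraries left of WT. In RNA KO replicate 2 stands above KO replicate 1 by 0.80 for the mitochondrial set, at 1.36 against 0.56, and in TE both KO-labelled points lie below WT in all 5 sets.

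Among genes that copy, transcribe, process and translate mitochondrial nucleic acids, the shares called in RNA are to be read beside the 33.1% of all tested genes called higher and the 27.7% called lower. Of 6 tested genes for mtDNA copying and transcription, 2 were called higher: Tfam, which packages mtDNA and starts its transcription (0.53, limma adjusted p = 0.00234), and Polg, the mtDNA polymerase (0.39, limma adjusted p = 0.00465). That share is at the background. Of 12 genes for mitochondrial RNA processing and stability, 2 were called higher and 3 lower. Rexo2, an exonuclease for short RNA fragments, had the largest rise (1.15), at 108 ± 13.3 RPKM in KO and 47.9 ± 2.20 RPKM in WT (SD, n = 2 each). Slirp, a partner in mRNA stabilisation, rose by 0.31 at low levels, 1.19 RPKM on average in KO and 0.767 RPKM in WT. The RNA granule protein gene Grsf1 (-0.77, limma adjusted p = 0.00591), Fastkd2 (-0.38) and Elac2, which cuts the 3′ ends of transfer RNAs (-0.32), were called lower.

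Of 10 mitochondrial translation factors, 3 were called higher and 0 lower in RNA: Mrpl58, a ribosome-rescue factor (0.69, limma adjusted p = 0.00014), the release factor gene Mtrf1l (0.34) and Guf1 (0.32). The share called higher is close to the 33.1% of all tested genes. Of 14 genes for the insertion and assembly of mitochondrially encoded subunits, 7 were called higher and 4 lower. The complex IV assembly genes Cmc1 (0.82) and Pet100 (0.81) and the complex III assembly gene Uqcc2 (0.76) led the rises. The falls were led by Acad9, a complex I assembly factor (-0.53, limma adjusted p = 0.00154), with Uqcc1 (-0.27) and Cox15, which makes the haem of complex IV (-0.25), after it. limma called 0 genes of these 4 lists in footprints and 0 in TE, where it called 1.06% and 0% of all tested genes.

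The non-member genes nearest to the mean profile of the 7 mRNAs were Ybx3, Zfp710, Uqcr10, Tedc2 and Ndufa5. Likeness was the Euclidean distance over 8 values, the centred log2 footprints and log2 RNA of the 4 libraries, and the distances of the 5 genes were 0.561, 0.663, 0.668, 0.693 and 0.695. The median over all tested genes was 1.79, and the 7 mRNAs themselves lay at 0.360 (mt-Co1) to 1.71 (mt-Nd1). Most of the 7 were therefore farther from their own mean than these 5 genes were. Uqcr10 and Ndufa5 are nuclear subunits of complexes III and I, and Ybx3 had RNA at 24.1 RPKM on average in KO and 9.52 RPKM in WT.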

How the data were processed

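Ribosome footprints and input RNA were taken from the same lysates. Per the labels' protocols, lysates were digested with 10 µg/ml micrococcal nuclease for 30 minutes, and fragments of 25 to 40 nucleotides were gel-purified. Per the submitters' processing notes, the tools were HISAT2 2.1.0, CASAVA, DESeq2 and featureCounts, each without a stated role, and the build was hg38, which is human, while the gene symbols are of mouse. No annotation is named in the sources used here, so no coordinates are printed. The authors deposited footprint values that behaved as RPKM plus 1, a unit read from the values. The deposited TE is the ratio of that value to an input RNA value whose floor is also 1, so RNA was taken as value over TE, minus 1. The deposited p-value per gene was used only as the authors' value.

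The steps of the RPKM values gave whole reads. In this step RefSeq lengths (GRCm38.p6) were used for mitochondrially encoded genes only, to find the assigned reads of each library. Reads of the 10536 genes with footprints in 2 or more libraries were the smallest whole numbers in the ratios between libraries, to within about 0.001 reads. For 456 of these genes the implied length was not whole, and a multiple of the reads was sought that made it so. Input depths were implied from mitochondrial genes alone, whose input reads lay up to 0.0366 from whole numbers. The design planned limma on RPKM: limma 3.58.1 (R 4.3.3) on log2(RPKM + 1) with a mean-variance trend, all 4 libraries, group as the only term, two-sided, and Benjamini-Hochberg adjustment over 6389 genes with a CPM of at least 20 in at least 2 libraries, threshold 0.05. Log2 differences are KO over WT on this scale, which understates changes of low genes. Scripts ran in Python 3.11.15 and were tested on simulated footprints, with a spread that was set and not taken from these libraries. Reads were recovered exactly for 96.0% of 6389 genes. The footprint fit called 37% of 100 genes raised 4-fold and 21% of 100 genes lowered 4-fold. The lack of a footprint call thus does not show equal levels.

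The 10 mRNAs, the 8 pathway lists and the 9 marker lists were chosen with earlier results of these data known. Named from each pathway list were the up to 3 largest rises and up to 3 largest falls past the threshold, apart from a result not reported here, and the 5 genes nearest to the mean profile of the mitochondrial mRNAs. Cd34, Ptprc, Nkg7, Cd3e, Itga2b, Pf4 and Gp9 were named after their values were seen. Replicate numbers are not stated to mark a shared litter, batch or day. The deviations of same-numbered libraries correlated with r = 0.0226 in footprints and -0.335 in RNA over 6389 genes, so the block was an alternative only. Other alternatives were no filter, a pseudocount of 8, median centring, totals without mitochondrial genes, no trend, limma-voom on recovered reads, and each library left out. Sequences of the mitochondrial mRNAs and proteins were not used here.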

Additional observations from a re-analysis of the deposited data

Results flagged for a closer look

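The ribosomal and transfer RNAs of the mitochondrial genome carried RNA signal that enters none of the comparisons above, and the pseudogene Gm10925 was described there without a test. The ribosomal RNA mt-Rnr1 was at 226 and 396 RPKM in KO replicates 1 and 2, against 214 and 157 RPKM in WT replicates 1 and 2. mt-Rnr2, the RNA of the large mitochondrial ribosomal subunit, was at 3242 and 5317 RPKM in KO and at 2965 and 2283 RPKM in WT. Fitted without a filter, their log2 differences were 0.71 (limma adjusted p = 0.128) and 0.67 (limma adjusted p = 0.121), so neither was called. The 16 mitochondrial transfer RNA rows of the table, of which 10 to 13 had RNA in a given library, summed to 74.6 and 114 RPKM in KO and to 53.0 and 55.7 RPKM in WT, with footprints on 0 of them. In all 3 cases KO replicate 2 was the highest of the 4 libraries, as it was for the RNA of each of the 7 tested mRNAs. The chromosome 1 pseudogene Gm10925 stood at 144 RPKM in KO replicate 2, against 7.61 RPKM in KO replicate 1 and 7.48 and 6.17 RPKM in the WT libraries. These values were not tested further.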

How the results depend on the processing

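The count of mitochondrial mRNAs called higher in RNA was 7 in the reported fit, 3 with no filter on low genes, and 2 to 7 with 1 library left out. It was 2 without WT replicate 2 and 6 without WT replicate 1, where mt-Cytb had an adjusted p of 0.0742. With no filter, the 4 mRNAs that lost the call had adjusted p-values of 0.0544 to 0.114. The pseudocount of 8, median centring, totals without mitochondrial genes and no trend each left 7. In footprints and in TE every alternative run called 0 of them. With the replicate number as a replicate block, 7 mRNAs were called in RNA and 0 in footprints and in TE, as without it, and the block changed no call of a mitochondrial mRNA. It called 32 genes in footprints and 3480 in RNA, against 68 and 3882 without it. The crossed block, chosen after seeing the data, called 134 genes in footprints, 4395 in RNA and 2 in TE.

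Directions of single footprint estimates turned when 1 library was left out. The log2 differences then ran from -1.05 to 2.06 for mt-Nd1, -1.97 to 0.18 for mt-Nd2, -0.93 to 0.077 for mt-Nd5, -0.56 to 1.38 for mt-Cytb and -0.55 to 0.80 for mt-Co1. In TE they ran from -1.85 to 0.50 for mt-Nd1 and -0.92 to 0.025 for mt-Cytb. Estimates that kept their sign but moved by over 1.5 times included mt-Nd4 footprints (-1.86 to -0.52) and mt-Nd2 TE (-2.99 to -1.19). The KO minus WT difference in the share of footprint reads ran from -0.234 to 0.402 percentage points and that of input reads from 0.309 to 1.06. The cause was not tested. Counts over all genes moved too: footprints gave 0 with no filter (1669 at an unadjusted p under 0.05), 113 with a pseudocount of 8, 72 by limma-voom, 336 and 1097 without KO replicates 1 and 2, and 0 without either WT library. RNA gave 6747 with no filter. TE gave 149 and 699 without KO replicates 1 and 2. Where 1 library of a group was left, it was assumed to vary like the other group. Footprint depth was as low as 36 reads for a tested mitochondrial mRNA (mt-Nd4 in KO replicate 1).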
